A study of Mus musculus with 12 samples.

Results

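The effect of exercise training on gene expression was measured in quadriceps, the large thigh muscle, of C57Bl/6J mice by setting the 6 arrays of trained animals against the 6 arrays of sedentary animals, with drug as a covariate. All 12 arrays of the study entered the comparison. The trained side held 3 arrays of mice that exercised and were given vehicle, called exercise here, and 3 of mice that exercised and were given GW1516 at 5 mg/kg daily, called combination. The sedentary side held 3 arrays of mice given vehicle and 3 of mice given the same dose of GW1516 alone, called vehicle and GW. Dosing lasted 4 weeks in each group, the muscle was taken at its end, and the labels name no genetic change in any group. GW1516 is a synthetic activator of PPARδ, a nuclear receptor that switches on fatty acid use in muscle, and every treated group was given it by the same schedule. Each array was hybridised with RNA combined from 3 mice, so that the p-values measure the spread between such pools and not between animals. The labels give no age, sex or training protocol, and the interval between the last bout of exercise and tissue collection is not stated in the sources used here.

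Repeated endurance exercise is known to raise the oxidative capacity of muscle, its supply of blood vessels and, over weeks, its content of mitochondria and myoglobin. A single bout has a faster effect, a burst of immediate early transcription factors and heat shock proteins that fades within hours. The pooled comparison asks which genes differed between trained and sedentary muscle whether or not the drug was given. Its median standard error was 0.149 on the log2 scale, against 0.208 for the training effect within one drug arm, so that it can reach differences that neither arm shows alone.

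Signals are the deposited MAS5 intensities on a linear scale, for which the 95th percentile of bacterial control probe sets, 23.5, served as a background level. All 11 muscle markers that could be measured lay above that level on every array, Ckm for instance at 19318 to 22765 in trained muscle, against 17623 to 23327 in sedentary muscle. Some arrays stood apart. Combination arrays 2 and 3 were rich in fat cell RNA, with a mean log2 signal over adipocyte markers of 7.95 and 8.34, against 6.64 to 6.83 on the other trained arrays and 6.66 to 6.93 on the sedentary arrays. On the same pair of arrays Fos, an immediate early gene, read 92.5 and 39.2, against 460 to 1127 on the other trained arrays. GW array 1 carried the highest sedentary signals of Egr1 (191.9), Rcan1 (643.9) and myoglobin, Mb (7842). Beta-actin signal at the 3′ end of the transcript over that at its 5′ end served as a measure of RNA integrity. It was 0.763 to 0.841 on trained arrays and 0.801 to 1.10 on sedentary arrays. Its median was lower on trained arrays, 0.809 against 0.877, but the ranges overlapped. The same ratio for Gapdh was 0.877 to 0.940 on trained arrays and 0.821 to 0.909 on sedentary arrays. Because some arrays stood apart, counts are also given without them.

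Haemoglobin transcripts were higher in trained muscle in the comparison of all 12 arrays. The call was lost when any 1 of 7 arrays was left out and with the beta-actin ratio as a covariate (adjusted p = 0.437). It was also lost with the replicate number as a block and without the intensity trend of the variance prior. Of 13575 probe sets tested, 2 passed an adjusted p of 0.05, which is 0.0147% of those tested, and both were higher in trained muscle. Of the 2, 1 measures alpha globin and the other beta globin, the protein chains that pair with haem to carry oxygen in red blood cells. Neither passed within a single drug arm of the 4-group model, in which all arrays share one estimate of the spread, so that by this measure the pooled comparison alone reached both, again 0.0147% of the probe sets. With only its own 6 arrays in the fit, an alternative added after the data had been seen, the GW1516 arm called neither (adjusted p = 0.867 for both), but the vehicle arm called alpha globin (adjusted p = 0.0209) and beta globin (adjusted p = 0.0246), and no probe set was then reached by pooling alone. No probe set passed as lower. Before adjustment 1166 probe sets (8.59%) had a p under 0.05, 606 of them higher (4.46%) and 560 lower (4.13%).

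The alpha-globin probe set is annotated to Hba-a1 and Hba-a2, and the beta-globin probe set to Hbb-bt, Hbb-bs, Hbb-b2 and Hbb-b1. Because the transcripts of neighbouring globin genes are nearly alike, the arrays do not separate them. The rule for naming genes asked for probe sets with 1 gene symbol, so the globins were named after their values had been seen. Alpha-globin genes lie on mouse chromosome 11 and beta-globin genes on chromosome 7, each in a cluster. The sequences around their transcription starts are shown because the 2 clusters moved together: each runs from 250 bases before the start to the first 50 transcribed bases, 5′ to 3′ in the direction of transcription. They come from RefSeq with build GRCm38.p6, at chr11:32283422-32283721 (plus strand) for Hba-a1, chr7:103827879-103828178 (minus strand) for Hbb-bs and chr7:103813874-103814173 (minus strand) for Hbb-bt. Capitals mark the CACCC box, the CCAAT box, the GATA motif and the TATAA box, searched on both strands, and no matches overlapped.
Hba-a1: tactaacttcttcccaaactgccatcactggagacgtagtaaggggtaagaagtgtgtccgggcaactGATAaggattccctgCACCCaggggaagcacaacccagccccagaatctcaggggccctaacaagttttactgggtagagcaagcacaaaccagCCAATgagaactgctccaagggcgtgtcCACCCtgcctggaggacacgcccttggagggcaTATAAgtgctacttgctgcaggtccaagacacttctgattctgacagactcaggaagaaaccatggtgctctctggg
Hbb-bs: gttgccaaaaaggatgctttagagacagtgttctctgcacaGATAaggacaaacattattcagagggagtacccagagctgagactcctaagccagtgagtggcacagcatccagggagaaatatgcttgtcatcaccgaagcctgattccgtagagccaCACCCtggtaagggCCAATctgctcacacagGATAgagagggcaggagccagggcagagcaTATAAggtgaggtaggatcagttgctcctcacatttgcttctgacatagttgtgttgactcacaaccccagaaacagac
Hbb-bt: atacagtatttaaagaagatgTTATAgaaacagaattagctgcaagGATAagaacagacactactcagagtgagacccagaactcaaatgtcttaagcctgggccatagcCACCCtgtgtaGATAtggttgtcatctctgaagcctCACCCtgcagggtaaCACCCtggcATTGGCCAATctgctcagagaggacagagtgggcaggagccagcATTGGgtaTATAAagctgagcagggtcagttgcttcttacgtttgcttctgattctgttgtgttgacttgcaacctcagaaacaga
The window of Hba-a2 (chr11:32296242-32296541, plus strand) matched that of Hba-a1 at 297 of 297 bases once shifted by 3 bases. Those of Hbb-bs and Hbb-bt were identical at 56.2% of aligned bases, and the alpha and beta windows at 31.0% to 31.9%. Each of the 4 windows held all 4 motifs, as 3.16% of 32851 mouse promoter windows of this length did. Singly, CACCC occurred in 57.5% of those windows, CCAAT in 37.4%, GATA in 57.9% and TATAA in 24.9%. A match of this kind is a description of the letters and not evidence of a bound factor.

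Alpha globin read 6568, 4960 and 5916 on the exercise arrays and 4845, 6878 and 5972 on the combination arrays, against 3666, 3701 and 3476 on the vehicle arrays and 4356, 3687 and 4156 on the GW arrays. Every trained array lay above every sedentary array. The fold change was 1.52 (log2 0.60 ± 0.08 SE, 95% interval 0.42 to 0.78, adjusted p = 0.0273 by limma).

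Beta globin read 4863, 3837 and 4139 with exercise and 3510, 5393 and 4556 with the combination, against 2637, 2922 and 2718 with vehicle and 3087, 2842 and 2998 with GW. Again the trained and sedentary arrays did not overlap, and the lowest trained value came from combination array 1. The fold change was 1.51 (log2 0.60 ± 0.09, 95% interval 0.41 to 0.78, adjusted p = 0.0273). A second alpha-globin probe set, annotated to the same genes, lay at 2822 to 4345 on trained arrays, against 2098 to 2515 on sedentary arrays, without overlap. Its log2 difference of 0.55 ± 0.10 did not pass (adjusted p = 0.142).

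**Figure D1:**
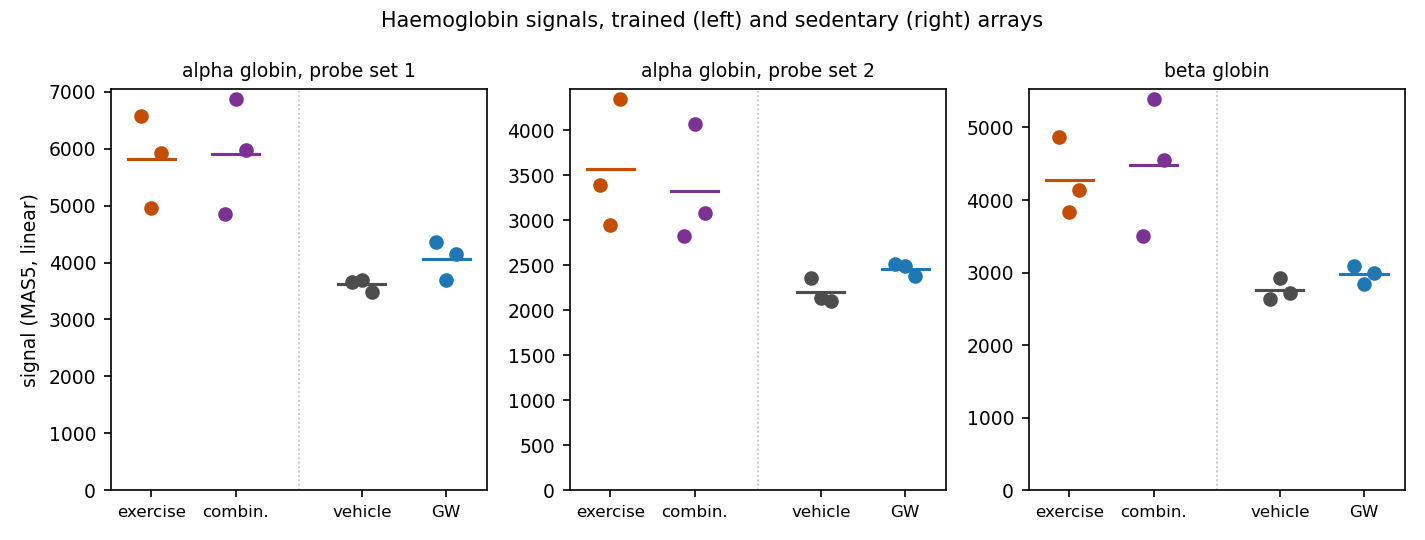
Signals of the 3 haemoglobin probe sets with a high level, on a linear axis starting at 0, with 1 point per array and a bar at each group's mean. In each panel the exercise and combination arrays on the left lie above all vehicle and GW arrays on the right.

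The globin difference was positive in both drug arms. For alpha globin it was log2 0.53 ± 0.12 between combination and GW and 0.68 ± 0.12 between exercise and vehicle (adjusted p = 0.0874 under vehicle). For beta globin it was 0.57 ± 0.13 between combination and GW (adjusted p = 0.529) and 0.63 ± 0.13 between exercise and vehicle (adjusted p = 0.131). The interaction, the training effect under GW1516 minus that under vehicle, was -0.15 for alpha globin (adjusted p = 0.874) and -0.06 for beta globin (adjusted p = 0.959). The second alpha-globin probe set had 0.42 under GW1516 and 0.68 under vehicle. Of 15 globin probe sets on the array, these 3 had a median signal over 1000, and the highest median among the others was 38.1, near background. That one, annotated to Hba-a2 alone, was the fourth globin probe set tested, at 14.0 to 66.2 on trained arrays and 25.6 to 49.0 on sedentary arrays, with a log2 difference of -0.18 ± 0.31 (adjusted p = 0.895).

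Other transcripts of red blood cells and their precursors were set beside the globins, from a list chosen after the globin values were seen. Of 18 listed genes 16 were on the array and 7, with 15 probe sets, passed the filter on low signal. These were Alas2, Ank1, Bpgm, Car2, Fech, Slc25a37 and Tfrc, while Slc4a1, Epb42, Klf1, Gata1, Rhag and Trim10 lay under the filter. The list as tested therefore cannot show whether red cell RNA moved with the globins. None of the 15 passed the test, 1 had an unadjusted p under 0.05, and their median log2 fold change was 0.08 (range -0.17 to 0.42, smallest adjusted p = 0.572). Alas2, which starts haem synthesis in red cell precursors, read 22.9 to 68.7 on trained arrays and 14.2 to 58.1 on sedentary arrays, with a log2 difference of 0.12 (adjusted p = 0.934), and its lowest sedentary value came from vehicle array 3. In these bulk samples fewer cells of a type and less RNA per cell cannot be told apart. The summed signal of the blood cell list, none of whose 2 markers lay above background on all arrays, was 184 to 410 on trained arrays and 191 to 352 on sedentary arrays.

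The 2 globin calls were not secure against leaving out single arrays. They passed together without exercise array 2, any 1 combination array or GW array 1, and neither passed without exercise array 1 or 3, any 1 vehicle array, or GW array 2 or 3, with adjusted p-values of 0.0799 to 0.126 in those cases. Over these fits the log2 fold change stayed between 0.55 and 0.67 for alpha globin and between 0.54 and 0.68 for beta globin. With the beta-actin ratio as a covariate the differences were 0.54 and 0.54 (adjusted p = 0.437), and its part in the result was not tested further. Without combination arrays 2 and 3 together they were 0.54 and 0.50 (adjusted p = 0.0409 and 0.0387).

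No further gene passed, so the 15 genes with the smallest p and 1 symbol are described as not passed. Of these, 8 had lower and 7 had higher values in trained muscle. Mycbp2, an E3 ubiquitin ligase known from the wiring of neurons, came first. It read 221, 208 and 201 with exercise and 241, 195 and 176 with the combination, against 396, 307 and 323 with vehicle and 276, 358 and 292 with GW. The groups did not overlap, and the log2 difference was -0.65 ± 0.11 (adjusted p = 0.0757), with -0.60 under GW1516 and -0.70 under vehicle.

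Abce1, an ATPase that splits ribosomes for reuse after translation, read 135, 116 and 109 with exercise and 137, 197 and 97.9 with the combination, against 264, 203 and 310 with vehicle and 224, 231 and 243 with GW. Combination array 2 lay just below the lowest sedentary array, and the other trained arrays well below it. The log2 difference was -0.92 ± 0.16 (adjusted p = 0.0960), whereas the other Abce1 probe set had -0.18 (adjusted p = 0.532). Eif5, which helps the ribosome settle on the start codon, lay at 940 to 1149 on trained arrays and at 1199 to 1535 on sedentary arrays, again without overlap, with a log2 difference of -0.39 ± 0.08 (adjusted p = 0.202). Its other 3 probe sets had -0.13 to -0.01.

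Mga, a transcription factor that dimerises with Max, had a median of 58.0 on trained arrays, against 97.0 on sedentary arrays (log2 -0.73 ± 0.16, adjusted p = 0.257), with no overlap. Aff1, a scaffold of the machinery that releases paused RNA polymerase, had medians of 227 on trained and 298 on sedentary arrays, without overlap (log2 -0.43 ± 0.10, adjusted p = 0.257). Its other 2 probe sets had 0.02 and 0.81, so no direction can be given for the gene. Mapre2, which binds the growing ends of microtubules, had medians of 42.7 in trained and 73.4 in sedentary muscle (log2 -0.92 ± 0.20, adjusted p = 0.257), while its other probe sets had -0.26 and -0.14.

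Mid1ip1, a partner of acetyl-CoA carboxylase in fatty acid synthesis, had medians of 408 on trained arrays and 576 on sedentary arrays (log2 -0.46 ± 0.10, adjusted p = 0.257). Alb, the serum albumin gene of liver, was low throughout, at 19.9 to 54.7 in trained muscle and 48.1 to 178 in sedentary muscle (log2 -1.36 ± 0.28, adjusted p = 0.203), so that part of its trained range lay under the background level.

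Scd1, the desaturase that makes monounsaturated fatty acids, was the only one of the 7 genes with higher values whose trained and sedentary arrays did not overlap. It read 60.7, 58.9 and 69.7 with exercise and 81.4, 211 and 306 with the combination, against 32.4, 29.4 and 30.3 with vehicle and 45.4, 45.5 and 54.6 with GW. All trained arrays exceeded all sedentary arrays, but the 2 highest were the arrays rich in fat cell RNA. The log2 difference was 1.44 ± 0.27 (adjusted p = 0.168), and without those 2 arrays it was 0.94. It passed with the mean adipocyte marker signal as a covariate (0.97, adjusted p = 0.0405) and without combination array 1 (1.64, adjusted p = 0.0299). The other Scd1 probe set had 0.71 (adjusted p = 0.437), with 1.32 under GW1516 and 0.11 under vehicle, and its trained and sedentary arrays overlapped. Adig, a gene of fat cell differentiation, had medians of 50.9 on trained arrays and 20.4 on sedentary arrays (log2 1.44 ± 0.30, adjusted p = 0.209), with 1.21 (adjusted p = 0.454) when combination arrays 2 and 3 were left out.

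Dnajb1, a co-chaperone of the heat shock protein Hsp70, read 868, 853 and 1089 with exercise, 1697, 224 and 121 with the combination, 144, 214 and 211 with vehicle, and 102, 82.5 and 110 with GW. The trained and sedentary arrays overlapped only through combination array 3 (log2 2.10 ± 0.43, adjusted p = 0.203). Fos read 900, 872 and 1127 with exercise and 460, 92.5 and 39.2 with the combination, against 49.3, 54.2 and 48.3 with vehicle and 111, 23.6 and 37.6 with GW. Here 2 combination arrays fell within the sedentary range, and the pooled log2 difference of 2.80 ± 0.58 (adjusted p = 0.203) joins 1.36 under GW1516 with 4.25 under vehicle.

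Klf4, an immediate early transcription factor also active in endothelium, had medians of 182 on trained and 99.2 on sedentary arrays (log2 0.79 ± 0.16, adjusted p = 0.203), and its second probe set had 0.80. Ier2, another immediate early gene, had medians of 150 on trained and 64.2 on sedentary arrays (log2 0.90 ± 0.19, adjusted p = 0.236). Cldn5, a tight junction protein of blood vessel lining, had medians of 145 on trained arrays and 82.7 on sedentary arrays (log2 0.75 ± 0.16, adjusted p = 0.203), and only combination array 1 fell among the sedentary values.

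**Figure D2:**
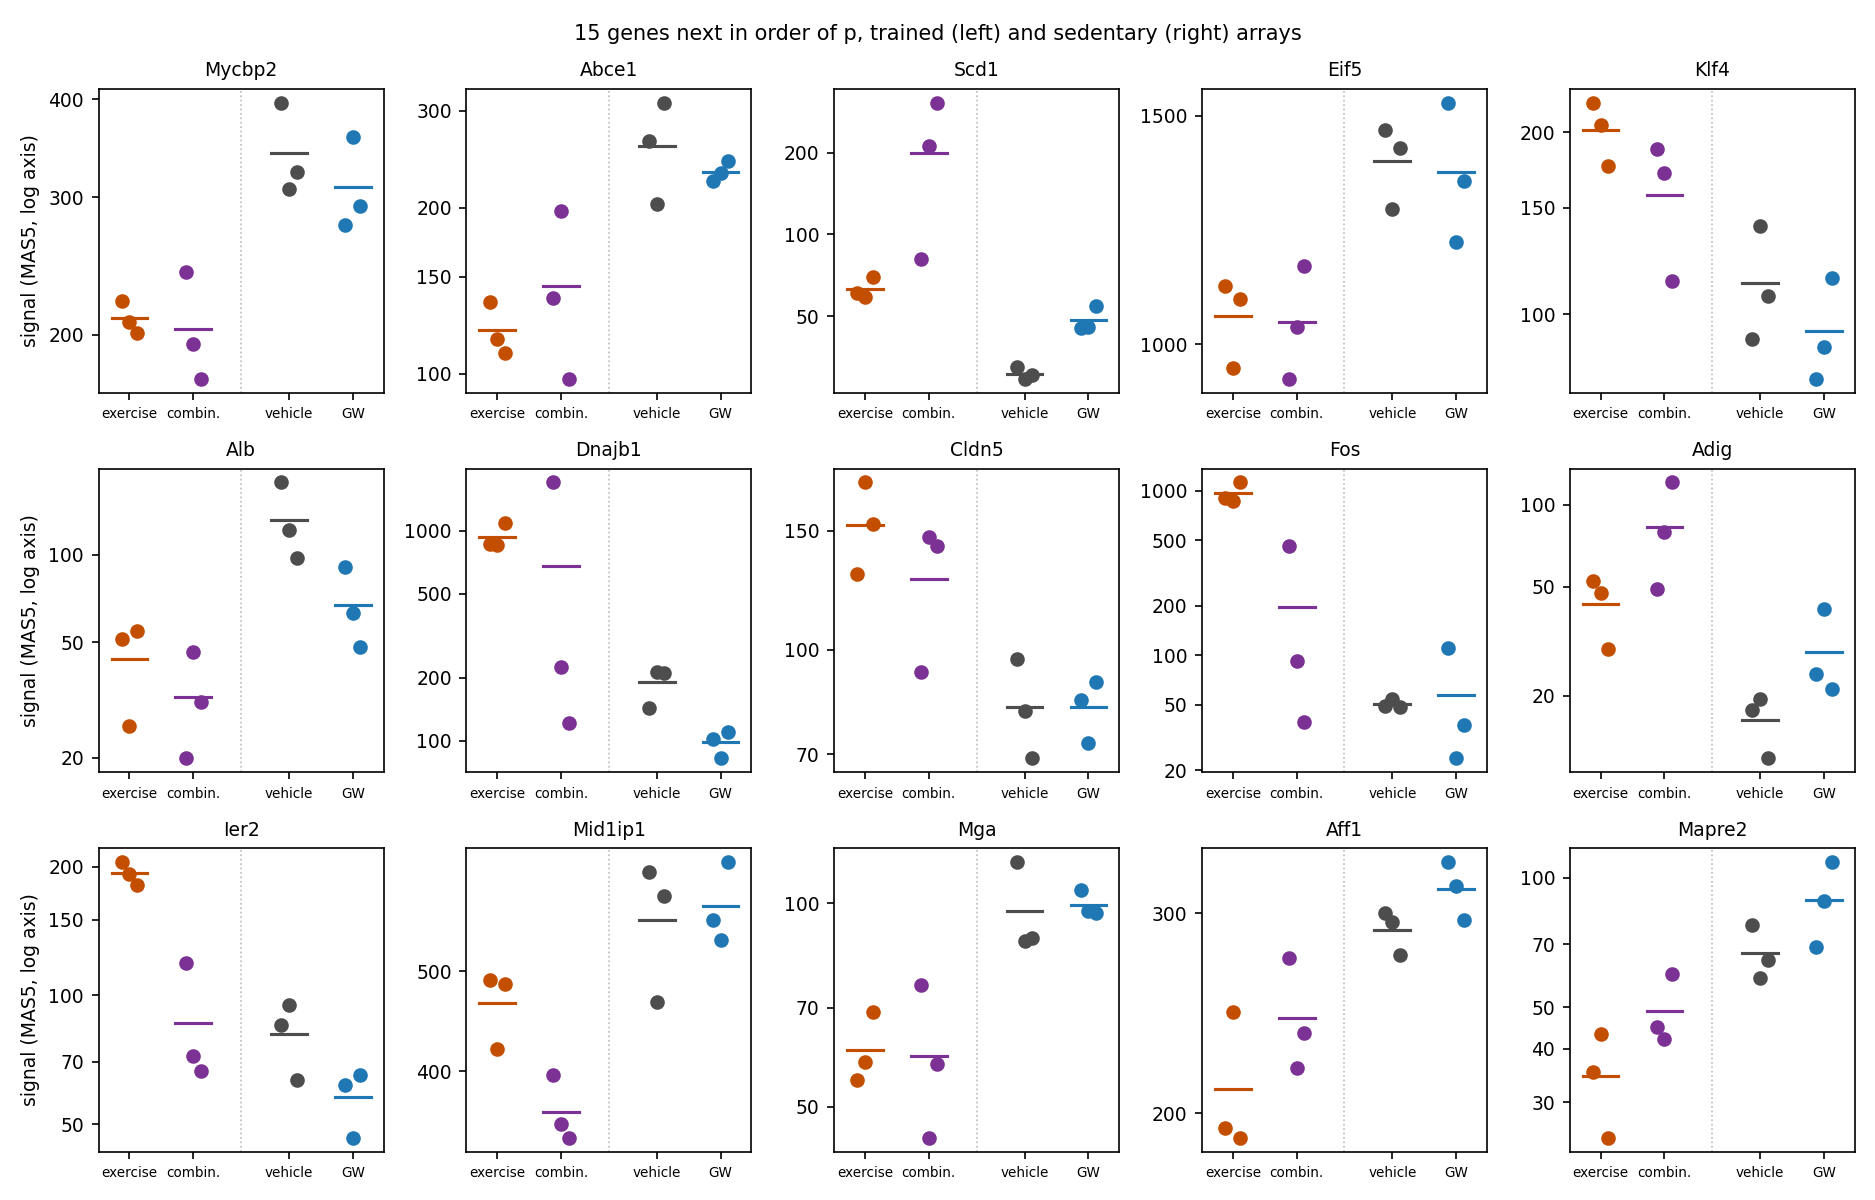
Signals of the 15 genes next in order of p, on log axes that differ between panels, with 1 point per array and a bar at the mean of each group's 3 arrays. The exercise and combination arrays are on the left of each panel and the vehicle and GW arrays on the right; none of the 15 passed the test.

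Arrays of trained and sedentary mice were fully separated for 51 probe sets (0.376%), 19 with trained muscle higher (0.140%) and 32 with it lower (0.236%). Of the 51, 49 did not pass the test. Among the 19 were the 3 globin probe sets, Scd1, Ulk1, the kinase that starts autophagy (log2 0.36), Akt2, a kinase of insulin signalling (0.29), Hipk2 (0.53) and Myadm (0.55). The 32 included Mycbp2, Abce1, Eif5, Mga and the Aff1 probe set described above. With them were Ogt, the enzyme that attaches O-GlcNAc to proteins (-0.25), Ago2, the slicing Argonaute of small RNA silencing (-0.28), and Psmc6, an ATPase of the proteasome (-0.17). Akt2, Hipk2, Myadm, Ogt, Ago2 and Psmc6 were picked after their values were seen.

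Which genes the pooled comparison reached depended on the arrays that stood apart. GW array 1 was singled out partly by its high Rcan1 and Mb signals, so that leaving it out must raise the training difference of these genes, and their values without it are a description. Without GW array 1, 14 probe sets passed, 9 higher and 5 lower, and 12 of them were reached in neither arm alone. They included the 2 globin probe sets, Mb, the oxygen-binding protein of oxidative fibres (log2 0.97, adjusted p = 0.0260), Rcan1, an inhibitor and target of calcineurin (0.67, adjusted p = 0.0194), Ldhb, the heart-type lactate dehydrogenase (1.21, adjusted p = 0.0381), and Hspb7, a small heat shock protein picked for its value here (0.92, adjusted p = 0.0194). With GW array 1 in the fit Mb had 0.78 ± 0.21 (adjusted p = 0.346), Rcan1 0.43 ± 0.20 (adjusted p = 0.572) and Ldhb 0.98 ± 0.26 (adjusted p = 0.346). On the lower side Mycbp2 and Abce1 also passed without it (-0.69 and -0.95, adjusted p = 0.0260 and 0.0461).

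Combination arrays 2 and 3 were singled out partly by their low Fos, and held the lowest trained signals of Fos, Egr1, Hspa1b and Dnajb1. Leaving them out must raise the training difference of these genes, so the values without them are a description. Without combination array 3, 11 probe sets passed, among them Fos, Junb, Klf2, Btg2 and Klf4 of the immediate early genes and Hspa1b, Hspa1a and Dnajb1 of the heat shock genes. Without combination arrays 2 and 3 together, which left 4 trained arrays, 25 passed, 22 higher and 3 lower. They held 9 immediate early probe sets and 10 of 5 heat shock genes. In that fit Fos had a log2 difference of 3.94 (adjusted p = 5.22e-05), Hspa1b 3.94 (adjusted p = 2.23e-05), Egr1 3.08 (adjusted p = 0.000231) and Dnajb1 2.92 (adjusted p = 9.88e-05), and the 2 globin probe sets stayed among the calls. They were no longer reached by pooling alone there, since a single arm of that fit called them too, as also happened without combination array 1 and with the fat cell score as a covariate. This pair was left out after the data had been seen, and 3 of the 4 remaining trained arrays came from the exercise group.

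The training effects of the 2 arms share no array and are set side by side here. Their log2 fold changes had a correlation of 0.0527 (Pearson) over 13575 probe sets, which are not independent replicates. Without GW array 1 it was 0.154, without combination arrays 2 and 3 it was 0.0714, and without combination array 1 it was 0.0276. The sign was the same for 52.2% of probe sets. With only its own 6 arrays in the fit, training under GW1516 gave 682 probe sets at an unadjusted p under 0.05, and 60.3% of these had the same sign under vehicle. Training under vehicle gave 1536, with 55.3% of the same sign under GW1516. There were 97 probe sets in both lists, 14.2% of the list under GW1516 and 6.32% of the list under vehicle, of which 63 had the same sign and 34 the opposite sign.

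The 63 shared probe sets were picked for these values and are given as a description. Beside the globins and the genes above they held Acaa2, the last enzyme of the beta-oxidation spiral (log2 0.22 under GW1516, 0.28 under vehicle), Fbp2, the muscle fructose bisphosphatase (0.29 and 0.29), and Atp1b2, a subunit of the sodium pump (0.39 and 0.41). Lower in both were Foxo1, a transcription factor of fasting and atrophy (-0.43 and -0.47), Timp4, an inhibitor of matrix proteases (-0.98 and -0.51), and Bgn, the proteoglycan biglycan (-0.74 and -0.83). In the 4-group model limma called 0 probe sets under GW1516, where 781 had an unadjusted p under 0.05 (5.75%, made of 2.76% higher and 2.99% lower). It called 2 under vehicle (0.0147%), Egr1 as higher (0.00737%) and a Kif1b probe set as lower (0.00737%), and 1417 had such a p there (10.4%, made of 5.69% higher and 4.74% lower). The interaction also gave 0 calls, with 922 at that level (6.79%, made of 3.17% with a higher and 3.62% with a lower training effect under GW1516).

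**Figure D3:**
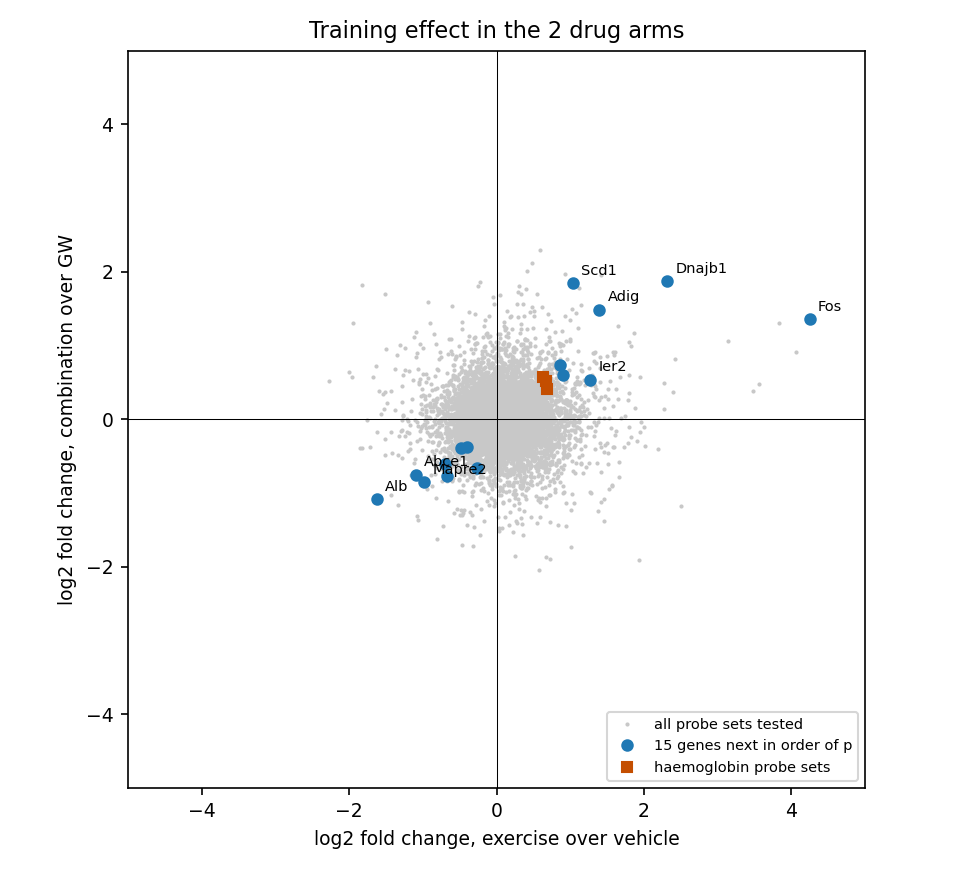
Training effect in each drug arm as log2 fold change, exercise over vehicle on the horizontal axis and combination over GW on the vertical axis, with 1 grey point per probe set. The haemoglobin probe sets (squares) lie near the diagonal at 0.63 to 0.68 and 0.42 to 0.57, while Fos lies at 4.25 and 1.36.

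Neither probe set called under vehicle passed in the pooled comparison. Egr1, an immediate early transcription factor, read 794, 869 and 937 with exercise and 414, 96.4 and 61.8 with the combination, against 85.3, 57.9 and 78.7 with vehicle and 192, 59.8 and 79.1 with GW. Only the exercise arrays and combination array 1 stood clear of the sedentary arrays, and the pooled log2 difference was 2.02 ± 0.53 (adjusted p = 0.345), between 0.48 under GW1516 and 3.57 under vehicle. The Kif1b probe set called under vehicle (log2 -0.62), which measures a motor protein of axonal transport, read 681, 620 and 647 with exercise and 1132, 951 and 987 with the combination, against 991, 964 and 1033 with vehicle and 896, 963 and 929 with GW. Its pooled difference was -0.24 ± 0.11 (adjusted p = 0.578), and the other 6 Kif1b probe sets ranged from -0.31 to 0.22. Klf15, a transcription factor of fasting and glucocorticoid response, was likewise low only with exercise, at 169, 195 and 215, against 374, 403 and 299 with the combination, 359, 351 and 425 with vehicle and 294, 437 and 354 with GW (pooled -0.49 ± 0.17, adjusted p = 0.419).

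Gene lists that fit trained muscle were read across all probe sets of their members. In 31 lists 495 genes were tested and 0 had a probe set past the threshold, so the lists are described by counts and medians beside those of all probe sets tested. Over the whole array the median log2 fold change was 0.00, 50.7% of probe sets were positive, 4.46% were higher at an unadjusted p under 0.05 and 4.13% lower.

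Immediate early genes, switched on within minutes of contraction, had a median of 0.43, with 28 of 34 probe sets positive and 15 at an unadjusted p under 0.05 as higher and 0 as lower. The median was 0.31 under GW1516 and 0.70 under vehicle. Beside Klf4, Fos and Ier2, Btg2 had 0.87 ± 0.21 (adjusted p = 0.311). For heat shock genes the median was 0.19, with 37 of 45 positive, 14 higher and 1 lower at that level, and the arm medians were 0.01 under GW1516 and 0.41 under vehicle. Hspa1b, the inducible Hsp70, read 961, 906 and 1322 with exercise and 1916, 161 and 58.2 with the combination, against 93.5, 108 and 39.6 with vehicle and 131, 57.1 and 161 with GW. Its pooled difference of 2.56 ± 0.67 (adjusted p = 0.345) joins 4 trained arrays over 900 with 2 that lay near the sedentary range. Hspa1a had 2.10 ± 0.56 and Dnaja1 0.49 ± 0.13 (adjusted p = 0.346 and 0.348); Hspa1a and Hspa1b are near-identical copies that the arrays may not separate.

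No gene of fat metabolism passed, and most had values above 0. Among PPAR target genes 17 of 18 probe sets were positive, 11 of them higher at an unadjusted p under 0.05 (61.1%), with a median of 0.33 that was 0.23 under GW1516 and 0.38 under vehicle. Ucp3, an uncoupling protein of muscle mitochondria, had a pooled difference of 0.43 ± 0.12 (adjusted p = 0.346), with 0.14 under GW1516 and 0.72 under vehicle. Its signals were 665 to 747 with exercise and 1185 to 1407 with the combination, against 386 to 465 with vehicle and 963 to 1398 with GW, so that both drug groups lay above both vehicle-dosed groups. A second Ucp3 probe set had 0.29, with -0.13 under GW1516 and 0.71 under vehicle. Cd36, which carries fatty acids across the cell membrane, had 0.47 ± 0.13, Lpl, the lipase that frees them from lipoproteins, 0.38 ± 0.11, and Slc27a1, a fatty acid transporter, 0.31 ± 0.10 (adjusted p = 0.359, 0.373 and 0.419). Under GW1516 they had 0.41, 0.34 and 0.32, and under vehicle 0.53, 0.41 and 0.30. Pdk4, the kinase that shuts off pyruvate oxidation, had 0.45 ± 0.20 (adjusted p = 0.567), with GW array 1 at 5335 above all others. Its pooled value joins -0.02 under GW1516 with 0.91 under vehicle.

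Mitochondrial fatty acid oxidation had a median of 0.13, with 0.15 under GW1516 and 0.12 under vehicle, with 26 of 28 positive and 6 higher at an unadjusted p under 0.05. Cpt2, the inner membrane carnitine palmitoyltransferase, read 816, 867 and 1069 with exercise and 917, 1017 and 872 with the combination, against 697, 711 and 857 with vehicle and 745, 653 and 716 with GW. Among sedentary arrays only vehicle array 3 reached into the trained range (0.34 ± 0.08, adjusted p = 0.339). Acaa2 had 0.25 ± 0.06 (adjusted p = 0.288), Hadh 0.56 ± 0.21 (adjusted p = 0.487) and Etfb 0.12 ± 0.06 (adjusted p = 0.563). Another Hadh probe set had a smaller difference, 0.21 ± 0.08 (adjusted p = 0.496).

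Lipid synthesis genes had a median of 0.34 and fat cell markers one of 0.50, with 14 of 14 fat cell probe sets positive. Under the separate arms the 2 medians were 0.46 and 0.93 under GW1516 and 0.08 and 0.20 under vehicle. Adipoq, the fat cell hormone adiponectin, read 283, 338 and 334 with exercise and 270, 1049 and 1471 with the combination, against 331, 210 and 365 with vehicle and 248, 346 and 363 with GW. Apart from combination arrays 2 and 3 all values lay between 209.7 and 364.8, and without those 2 arrays its log2 difference was 0.00, against 0.68 ± 0.33 with them (adjusted p = 0.583). Fasn, the fatty acid synthase, had 0.99 ± 0.32 (adjusted p = 0.393) and 0.39 without them. The summed signal of the fat cell markers was 10091 to 24704 on trained arrays and 9715 to 14156 on sedentary arrays. Beyond the fits with the fat cell score and without those 2 arrays, its part in the lipid results was not tested.

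Glycolysis and glycogen genes had a median of 0.08, with 37 of 46 positive and 12 higher at an unadjusted p under 0.05 (26.1%). Pygm, muscle glycogen phosphorylase, had 0.14 ± 0.05 (adjusted p = 0.419), Ldhb 0.98 ± 0.26 and Pfkfb3, which makes the activator of phosphofructokinase, 0.54 ± 0.15 (adjusted p = 0.366). This Pfkfb3 probe set had 0.64 under GW1516 and 0.44 under vehicle. Another Pfkfb3 probe set had 0.57 ± 0.19 (adjusted p = 0.419), with 1.10 under GW1516 and 0.04 under vehicle. Citrate synthase, Cs, whose activity is a common gauge of mitochondrial content, had 0.15 ± 0.07 in the probe set with the smallest p (adjusted p = 0.572), and 0.10 and 0.01 in the other 2. Tricarboxylic acid cycle genes had a median of 0.07 and genes of oxidative phosphorylation 0.03, with 4 of 76 probe sets higher and 1 lower at an unadjusted p under 0.05. Among these Uqcrc2, a core subunit of complex III, had 0.18 ± 0.05 (adjusted p = 0.366), with exercise array 1 well below the other trained arrays. Ppargc1a, the coactivator PGC-1alpha, ranged from -0.41 to 0.12 over 5 probe sets, none with an unadjusted p under 0.05.

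Fibre type genes gave no call. Slow fibre genes had a median of 0.10, made of -0.05 under GW1516 and 0.53 under vehicle, and only Mb had an unadjusted p under 0.05. Mb read 8241, 10002 and 7791 with exercise and 6389, 8300 and 5298 with the combination, against 5513, 3931 and 3225 with vehicle and 7842, 2804 and 4670 with GW. GW array 1 lay among the higher trained values, and vehicle array 1 above combination array 3. Fast fibre genes had a median of 0.11, with Myl1, a fast myosin light chain, at 0.19 ± 0.06 (adjusted p = 0.378) and Myh1, the type IIx myosin, at 0.47 ± 0.17 (adjusted p = 0.450). Under GW1516 Myl1 and Myh1 had 0.07 and 0.09, and under vehicle 0.305 and 0.85. Myh4, the type IIb myosin and among the brightest signals of this muscle, had 0.10 ± 0.05 (adjusted p = 0.614), a sign that turned under quantile normalization (-0.049). Myh7, the slow myosin, lay under the filter on low signal and was not tested.

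Endothelial genes had a median of 0.06, with 17 of 26 positive, 9 negative, and 5 higher at an unadjusted p under 0.05. Beside Cldn5 these held Cdh5, the cadherin of endothelial junctions (0.92 ± 0.24, adjusted p = 0.345), Apln, a peptide of growing vessels (0.62 ± 0.18, adjusted p = 0.366), and Kdr, the main VEGF receptor (0.43 ± 0.17, adjusted p = 0.528), each positive in both arms. As read among the cell type markers, Cdh5 had medians of 145 on trained and 130 on sedentary arrays. Those ranges overlapped, and the difference was smaller than the 0.92 above. Other endothelial markers were divided. Pecam1 had medians of 135 on trained and 107 on sedentary arrays. Tek (101 and 116), Tie1 (94.6 and 102), Vwf (122 and 145) and Emcn (89.8 and 91.9) had lower medians on trained arrays. The summed signal of the endothelial list was 4422 to 5460 on trained arrays and 4521 to 5145 on sedentary arrays. Extracellular matrix genes had a median of 0.09, with 44 of 52 positive, 3 higher and 2 lower at an unadjusted p under 0.05. Of its members Timp2 had 0.37 ± 0.11 and Bgn -0.79 ± 0.24 (adjusted p = 0.373 and 0.380). Serpinh1, the chaperone of collagen, belongs to the collagen folding list described below. It read 389, 461 and 485 with exercise and 287, 180 and 180 with the combination, against 239, 173 and 195 with vehicle and 189, 171 and 261 with GW. Its trained and sedentary arrays overlapped through the combination group (0.60 ± 0.20, adjusted p = 0.419), with 0.05 under GW1516 and 1.14 under vehicle.

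Macrophage genes had a median of 0.06, with opposite medians in the arms (-0.16 under GW1516, 0.34 under vehicle), and 1 of 28 probe sets at an unadjusted p under 0.05. Glucocorticoid-responsive genes had the lowest median of the 31 lists, -0.13, with 12 of 35 positive. At an unadjusted p under 0.05, 2 were higher (5.71%) and 6 lower (17.1%). Cebpb, a transcription factor of that list, had -0.26 ± 0.07 (adjusted p = 0.366) and Glul, glutamine synthetase, -0.30 ± 0.09 (adjusted p = 0.381). Under GW1516 Cebpb and Glul had -0.32 and -0.07, and under vehicle -0.20 and -0.52. Proteolysis and atrophy genes had a median of -0.03, with 5 higher and 5 lower. Foxo1 read 134, 161 and 179 with exercise and 239, 246 and 244 with the combination, against 218, 188 and 251 with vehicle and 294, 361 and 331 with GW. Within each arm the trained arrays lay below the sedentary ones, although the pooled ranges overlapped, and the log2 difference was -0.45 ± 0.10 (adjusted p = 0.284). Among clock genes Nr1d1, the repressor Rev-erbα, had 0.59 ± 0.18 and Rora, its activating counterpart, -0.22 ± 0.06 (adjusted p = 0.373 and 0.366). Under GW1516 Nr1d1 and Rora had 0.97 and -0.18, and under vehicle 0.22 and -0.26.

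Calcium handling and excitation genes had a median of 0.09, with 32 of 41 positive and 3 higher at an unadjusted p under 0.05. Atp1b2 read 1047, 1134 and 1355 with exercise and 1230, 1189 and 1032 with the combination, against 687, 946 and 1061 with vehicle and 835, 856 and 934 with GW. Vehicle array 3 alone reached into the trained range (0.40 ± 0.10, adjusted p = 0.339). Atp1b1, another subunit of the sodium pump, had 1.06 ± 0.33 (adjusted p = 0.381), with vehicle array 2 far below all others. That array read 8.97, under the background level, and the other sedentary arrays 31.3 to 54.1. Regulators of oxidative metabolism had a median of -0.03, with 2 higher and 4 lower at that level, among them Mef2c, a transcription factor of muscle genes (-0.25 ± 0.08, adjusted p = 0.378). Amino acid breakdown genes had a median of -0.01, with 0 higher and 3 lower, Hibch of valine breakdown at -0.32 ± 0.11 (adjusted p = 0.419). The median of this list was 0.08 under GW1516, with 23 of 31 probe sets positive. Under vehicle it was -0.13, with 8 of 31 positive.

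Endoplasmic reticulum chaperones and collagen folding genes had a median of 0.01, with 5 higher and 3 lower at an unadjusted p under 0.05, and Canx, the chaperone calnexin, had 0.39 ± 0.13 (adjusted p = 0.419). Muscle identity genes had a median of 0.11, with 22 of 23 positive and 5 higher. Secreted muscle factors had a median of 0.22, with 4 of 14 higher and 1 lower, and Igf1, a growth factor, had 0.40 ± 0.14 (adjusted p = 0.450). The medians of the antioxidant, Z-disc, myogenic, phosphatase, interferon, polyamine and nerve sheath lists lay between 0.01 and 0.18, with 0 to 4 probe sets higher and 0 to 2 lower at that level. In the arms the Z-disc, myogenic and polyamine medians were -0.16, -0.16 and -0.13 under GW1516 and 0.15, 0.14 and 0.18 under vehicle. The interferon and nerve sheath medians were 0.22 and 0.17 under GW1516 and -0.01 and -0.06 under vehicle. The blood cell list, with 2 probe sets tested, had a median of 0.15 and none at that level.

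**Figure D4:**
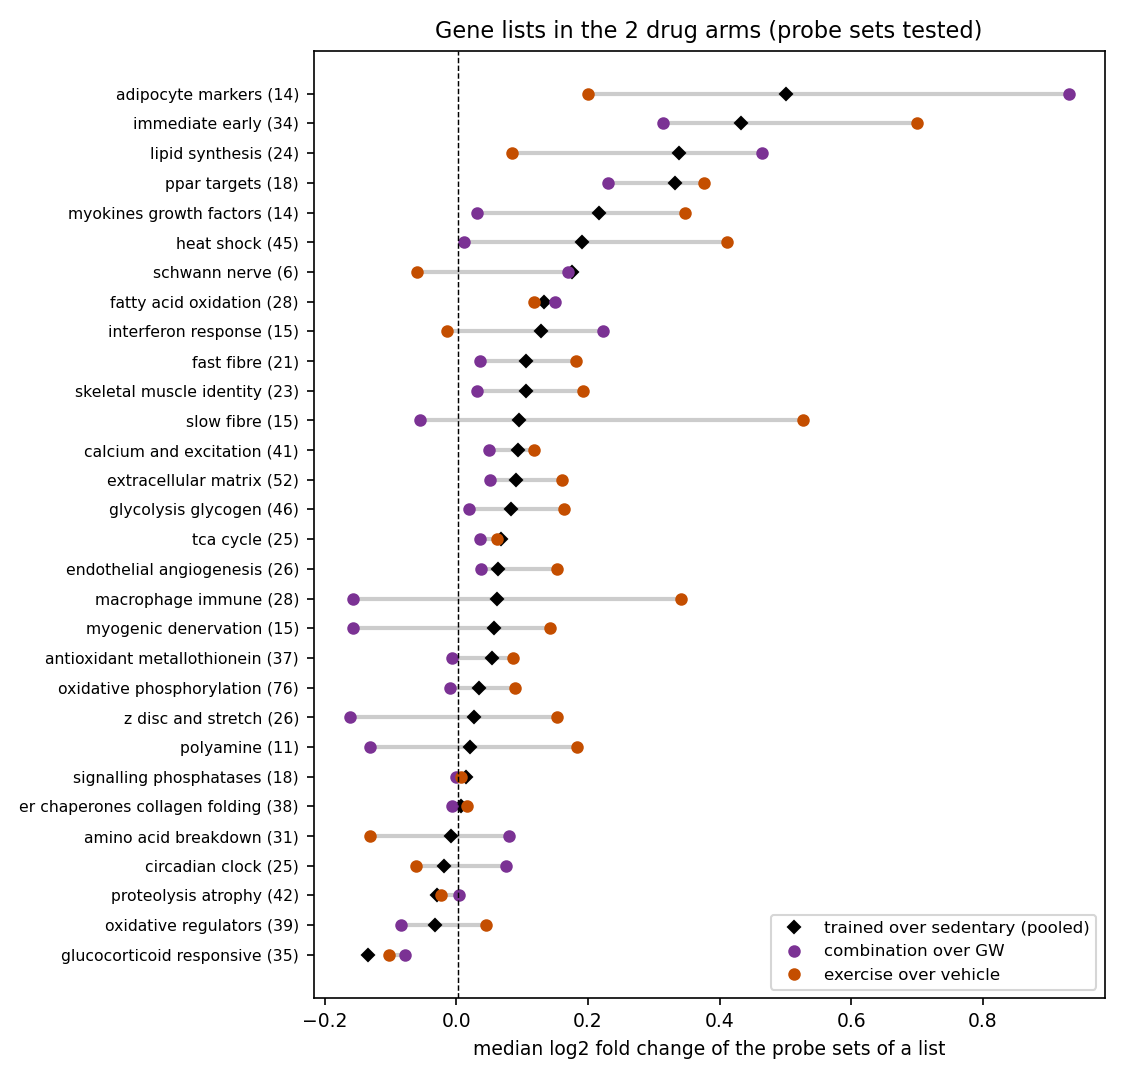
Median log2 fold change of each gene list with at least 5 probe sets tested, with the number of probe sets in brackets, for the pooled comparison (diamonds) and for combination over GW and exercise over vehicle (circles). The dashed line is the median of all probe sets, 0.00; fat cell markers lie furthest right under GW1516 at 0.93 and immediate early genes furthest right under vehicle at 0.70.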

How the data were processed

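Linear signal intensities of 12 mouse expression arrays were deposited by the authors, who made them with MAS5, per the submitters' processing notes. No MAS5 version is named, and the trimmed mean was about equal on all arrays. Of 22690 probe sets 64 controls were left out, and the 13575 in the upper 60% by mean log2 signal were tested, of which 12512 had 1 gene symbol, 436 several and 627 none. Log2 signals were fitted with limma 3.58.1 in R 4.3.3 (training plus drug, 9 residual degrees of freedom, variance prior with an intensity trend), and p-values were adjusted by Benjamini-Hochberg over all 13575. Single arms and the interaction came from a 4-group model with 8 residual degrees of freedom. Named genes were, with 1 symbol, those called, the 15 with the smallest p, up to 4 per gene list and 15 set genes, and the text says where others were added. The members and lists were chosen with earlier results of these data known. The fit was tested on simulated data. The labels give no scan or extraction batch. Alternatives covered normalization, filter, variance prior, covariates and leaving out each array.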

Additional observations from a re-analysis of the deposited data

Results flagged for a closer look

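Among the probe sets named, 204 sets of 6 arrays, trained or sedentary, were searched for a single array far from the nearest of the other 5, and 12 (5.88%) held one; chance gives about 1 in 20. On the trained side, Col4a1 was 362.5 on combination array 1 (the others 444.2 to 501.1), Uqcrc2 was 3365 on exercise array 1 (3792 to 3929), Cd163 was 19.16 on exercise array 1 (33.97 to 44.6) and Got2 was 3381 on combination array 3 (3988 to 4336). On the sedentary side 3 of the values came from GW array 1: Egr1 was 191.9 (57.95 to 85.31), Rcan1 643.9 (237.5 to 296.4) and Got2 4253 (3369 to 3623). Vehicle array 1 gave Nr1d2 at 81.05 (180.7 to 255.6) and Kcnj11 at 164.7 (265.5 to 325.5). Atp1b1 was 8.965 on vehicle array 2 (31.32 to 54.1), Alas2 was 14.21 on vehicle array 3 (46.56 to 58.05) and Ccl9 was 2.133 on GW array 3 (21.99 to 63.47).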

How the results depend on the processing

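The pooled comparison called 2 probe sets, both globin, under quantile and cyclic loess normalization, an added pseudocount, no filter, a filter at the upper 40%, a robust prior, the 4-group model and no drug term, and 3 with array weights. It called 0 without the intensity trend, 0 with the beta-actin ratio as a covariate and 0 with 1 probe set per gene, which leaves out probe sets of several symbols and so the globins. It called 24 with the fat cell score as a covariate and 25 without combination arrays 2 and 3, an alternative chosen after seeing the data. Leaving out single arrays gave 0 to 14. Probe sets reached only by pooling numbered 0 without the trend, 0 with 1 probe set per gene, 0 with the actin ratio, 9 with the fat score, 7 without combination arrays 2 and 3 and 0 with each arm fitted on its own 6 arrays (0 to 12 without single arrays). Gene list members called numbered 14 with the fat score and 14 without combination arrays 2 and 3 (0 to 8). Under vehicle the count of 2 became 0 with quantile normalization, 0 with cyclic loess, 0 without the trend, 0 with the robust prior, 0 with the actin ratio, 20 with array weights, 4 with 1 probe set per gene, 21 with the fat score and 33 in a fit of its own 6 arrays, chosen after seeing the data (0 to 20). Under GW1516 it became 7 with the fat score (0 to 35). The interaction gave 1 with array weights and 1 with 1 probe set per gene (0 to 9). With the replicate number as a block the counts were 0 in the pooled comparison, 0 reached only by pooling, 1 under GW1516 and 1 for the interaction. Same-numbered arrays had correlations of -0.0484 to 0.1004, with a mean of 0.013 against -0.0065 for other pairs. Of 12 arrays, 8 correlated best with their own number. The labels do not name the numbers as pairs, so the main fit left them out. Whether they mark pairs was not settled. Where no reason is given the cause was not tested. For single probe sets, 2628 fits kept the direction and the side of the threshold, 43 crossed into significance, 20 out of it, and 2 reversed: Myh4 had -0.049 with quantile normalization (adjusted p = 0.702) and Alas2 -0.14 without vehicle replicate 3 (adjusted p = 0.895), against up to 0.25 in fits without another single array.

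The design has 6 arrays a side, each a pool of 3 mice, so variation between animals was not measured. Weakly expressed genes below a mean signal of 28.4 were not tested, and near-identical transcripts such as the globins share probes. The actin ratio had a lower median on trained arrays, with overlapping ranges. With it as a covariate no probe set passed, and its part in the results was not tested further.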
